A study of Homo sapiens with 13 samples.

Results

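The proteasome is the protease that degrades ubiquitin-tagged proteins, and it is the target of bortezomib and related drugs in multiple myeloma, a cancer of plasma cells. Its transcripts and those of the enzymes that attach ubiquitin were followed here as 24 genes, out of 6948 genes and unnamed features that could be tested. The genes were taken by symbol, as proteasome subunits (PSMA to PSMG with a number), ubiquitin-activating enzymes (UBA1 to UBA7) and ubiquitin-conjugating enzymes (UBE2, without UBE2C), and a cDNA feature was used if it had a value on at least 7 of the 13 arrays. Of 27 symbols that matched, 3 had no such feature. The 24 genes were divided into the 20S core (4 genes), the immunoproteasome with its activator (3), the regulatory caps (5) and the activating and conjugating enzymes (11). This left PSME3IP1, a binding partner of a cap protein and not itself a subunit. The cap class is mixed. It held the 19S lid genes PSMD14 and PSMD6, the other cap genes PSME3 and PSME4, and PSMF1, whose product binds the core and is not itself a cap.

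Expression was measured on spotted cDNA arrays in 3 myeloma lines, KMS12, H929 and SKMM1, infected with a hairpin against IRF4, the transcription factor on which myeloma cells depend, or with a hairpin against luciferase (shluc) as control. Doxycycline at 20 ng/ml induced the hairpins. Each array compared the IRF4 hairpin culture (Cy5) with the shluc culture (Cy3) of the same line and day, so negative log2 ratios stand for transcripts that were scarcer in the IRF4 hairpin culture. The KMS12 arrays formed 3 culture series, named shi_1332, shi_1332b and shi_2046 in the labels and called 1332, 1332b and 2046 below. Each series had 1 uninduced array, 1 array at days 2-3 and 1 at days 4-5. Series 1332 was sampled at days 3 and 5 and also at day 7, and the other series were sampled at days 2 and 4. H929 (2 repeat arrays) and SKMM1 (1 array) carried shi_2046 and were sampled at day 4. Both cultures of an uninduced array carried their hairpin without doxycycline. Series 1332 was sampled on other days than 1332b and 2046, so for it day and series within a window cannot be told apart, and the labels leave it unsaid whether 1332 and 1332b share a hairpin sequence. Where 3 values of KMS12 are listed below, they stand in the order of series 1332, 1332b and 2046.

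In the ubiquitin pathway an activating enzyme (E1) charges a conjugating enzyme (E2), which passes ubiquitin to the substrate with the help of a ligase. The barrel-shaped 20S core cuts the tagged protein inside its inner rings. The 19S caps on the core ends open it, unfold the substrate and remove the ubiquitin chain. In cells exposed to interferon, and in many lymphoid cells, other catalytic subunits replace the constitutive ones and form the immunoproteasome. Plasma cells secrete large amounts of antibody and load this system heavily.

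IRF4 itself lay at log2 ratios of 0.32, 0.14 and 0.36 on the uninduced KMS12 arrays, -1.23, -1.83 and -0.89 at days 2-3 and -0.68, -0.85 and -0.73 at days 4-5. It was at -0.74 on the day 7 array, at -1.84 and -2.03 on the H929 arrays and at -2.09 on the SKMM1 array. Every induced array thus lay below every uninduced one. The 2046 array had the smallest difference from its control at days 2-3. Tested against 0, the IRF4 ratio passed in H929 (log2 ratio -1.94, SE 0.22, limma adjusted p = 0.0123) and in KMS12 at days 2-3 (-1.32, limma adjusted p = 0.0136), and it did not at days 4-5 (-0.75, limma adjusted p = 0.315). The KMS12 difference from uninduced did not pass at days 2-3 (-1.59, SE 0.25, limma adjusted p = 0.0896) or at days 4-5 (-1.03, SE 0.25, limma adjusted p = 0.829). Without the 2046 array at days 2-3, that window passed (-1.80, limma adjusted p = 0.00764).

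Between 7140 and 14228 of 15246 features had a value on an array, and 19 to 24 of the 24 genes did. The 2046 uninduced array stood apart: features measured on all 13 arrays had a median log2 ratio of 0.46 there, against -0.18 to 0.08 on the other arrays. Features measured on 1 to 9 arrays shifted too, with medians of -0.57, -0.05 and -0.41 on the uninduced arrays of 1332, 1332b and 2046. On the 1332 arrays at days 3, 5 and 7 their medians were 0.28, 0.49 and 0.44. Sparsely measured genes may carry this shift. For the class medians and the 24 genes, a printed difference from uninduced is also given without the 2046 uninduced array where that moved it by over 1.5 times or across 0. Nothing in the labels makes the repeats separate cultures. Each p-value below therefore reflects array-to-array spread, part of which may be technical, and precision is limited by the small number of arrays. In such bulk RNA, fewer cells of a kind and less RNA per cell cannot be told apart. Ratios give no level, so the plasma cell identity of the lines could not be checked by the level of its markers. The ratios of 9 measured plasma cell markers, IRF4 among them, had a median difference of -0.61 at days 2-3 and -0.42 at days 4-5 from uninduced. Over the same windows earlier B cell markers (6 of 7 measured) had medians of 0.47 and 0.34, with 0 and then 2 genes below 0. Their median against 0 on the uninduced arrays was itself -0.26. T cell markers (6 of 7) had medians of 0.34 and 0.35, and erythroid markers (2 of 3) medians of 0.455 and 0.524. Myeloid markers had medians of -0.68 (2 of 6) and 0.05 (3 of 6). The part of these markers in the results below was not tested.

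**Figure D1:**
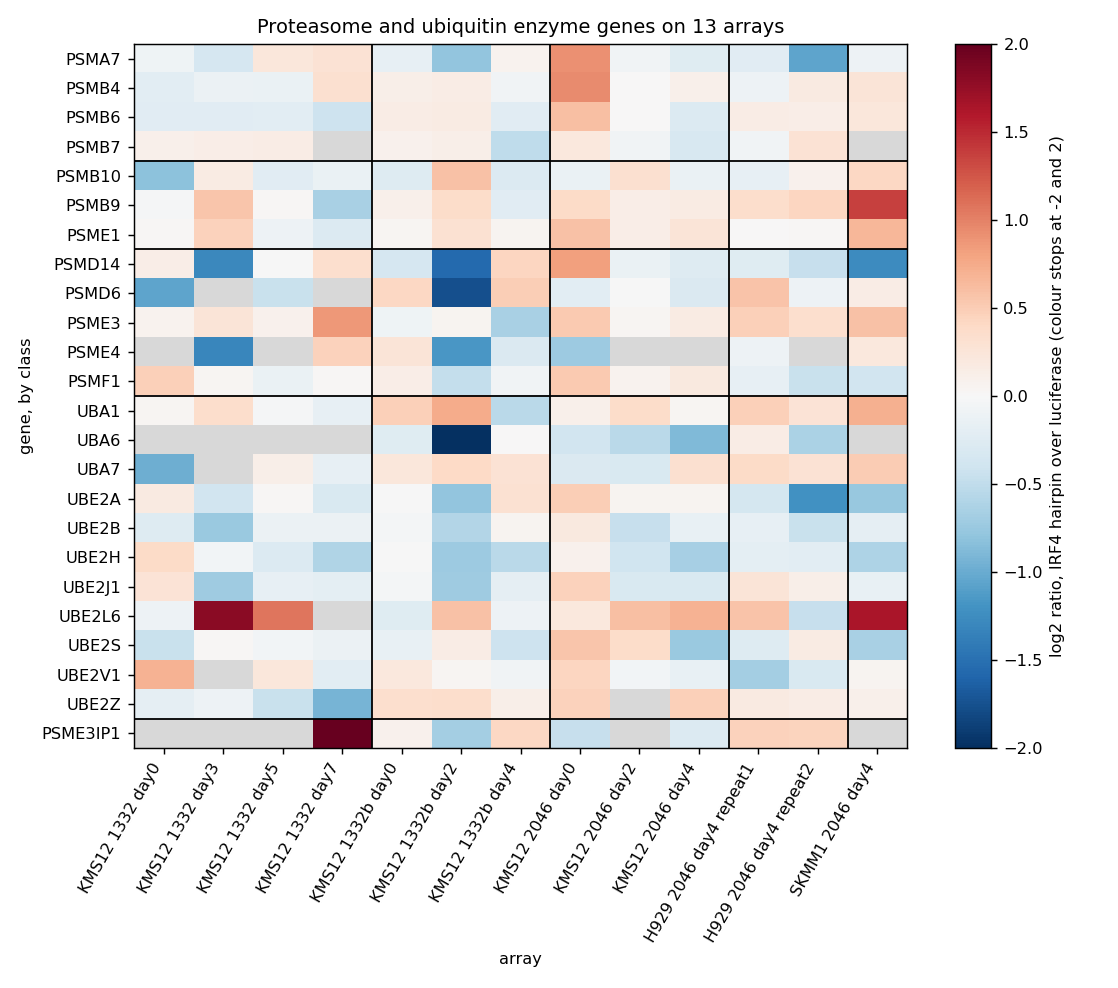
Log2 ratio of the IRF4 hairpin culture over the luciferase culture for the 24 genes (rows, grouped by class with black lines) on the 13 arrays (columns, grouped by series and line); blue is lower and red is higher in the hairpin culture, grey has no value, and the colour stops at -2 and 2. The days 2-3 arrays of series 1332 and 1332b hold the deepest blue cells among the cap genes, and UBE2L6 is red on the days 2-3 arrays and in SKMM1.

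At days 2-3 the 5 cap genes and 7 of the 11 E1 and E2 genes lay below their uninduced ratio in KMS12, while the 3 immunoproteasome genes lay above it, but no single gene passed the adjusted test. The median log2 difference from uninduced was -0.60 for the caps (5 of 5 genes below 0), -0.45 for the E1 and E2 enzymes (7 of 11 below), -0.23 for the 20S core (4 of 4 below) and 0.20 for the immunoproteasome (0 of 3 below). Over all 24 genes the median was -0.36 with 17 below 0 (70.8%), against a median of 0.06 and 45.1% below 0 among all 6859 genes and features tested. Without the 2046 uninduced array 13 of the 24 lay below 0 (54.2%, against 45.5% of all tested), with a median of -0.16 over the 24, and the immunoproteasome median was 0.31. By class, 4 of 5 cap genes (median -0.57), 6 of 11 E1 and E2 genes (-0.44) and 2 of 4 core genes then lay below 0. The cap median ranged from -0.995 (without the 2046 array at days 2-3) to -0.325 (without the 1332b array of that window) when single arrays were left out. With the culture series as a block, 22 of the 24 genes could be fitted, and the E1 and E2 enzymes had a median of -0.12 with 5 genes below 0 and 5 above. Limma called 0 of the 24 genes at an adjusted p under 0.05, where 0.0437% of all tested were called. At an unadjusted p under 0.05, 4 genes lay lower (PSMD14, UBE2B, UBE2H and UBE2J1; 16.7% against 13.2% of all tested) and 2 higher (PSMB10 and UBE2L6; 8.33% against 7.17%), shares near the background in both directions.

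In the main fit the class medians at days 4-5 lay closer together and nearer to 0 than at days 2-3, except in the core. They were -0.34 for the 20S core (4 of 4 genes below 0), -0.15 for the immunoproteasome (2 of 3), -0.15 for the caps (4 of 5) and -0.15 for the E1 and E2 enzymes (9 of 11). With the culture series as a block, the caps had a median of -0.30 and the E1 and E2 enzymes one of -0.27. For the enzymes this lay further from 0 than the block median at days 2-3 (-0.12), the reverse of the main fit. The immunoproteasome median was 0.02 when features measured on few and on many arrays were centred apart, and 0.03 without the 2046 uninduced array, so its side of 0 was not settled. Over all 24 genes the median was -0.16, with 19 below 0 (79.2%), against 0.03 and 46.7% over all 6942 tested. Without the 2046 uninduced array the median was -0.04, with 14 below 0 (58.3%, against 45.1% of all tested). By class, 2 of 4 core genes (median -0.08), 3 of 5 cap genes and 7 of 11 E1 and E2 genes then lay below 0. Limma called 0 of the 24 genes (0% of all tested), and at an unadjusted p under 0.05 it gave 1 lower, UBE2H (4.17% against 1.76%), and 0 higher (3.79% of all tested).

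The series did not carry these medians equally. At days 2-3, the caps differed from their own uninduced array by medians of -0.44, -1.22 and -0.47, over 3, 5 and 4 genes. The E1 and E2 medians were -0.18, -0.17 and -0.31. The core medians were 0.02, 0.03 and -0.76, so that series 2046 alone lay away from 0. All 2046 differences are taken from the uninduced array that stood apart, so its offset and a response of that series cannot be told apart. Over all genes tested the medians were 0.00, 0.02 and -0.12. The immunoproteasome medians were 0.57, 0.27 and -0.24, with series 2046 on the other side of 0 from the other two.

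**Figure D2:**
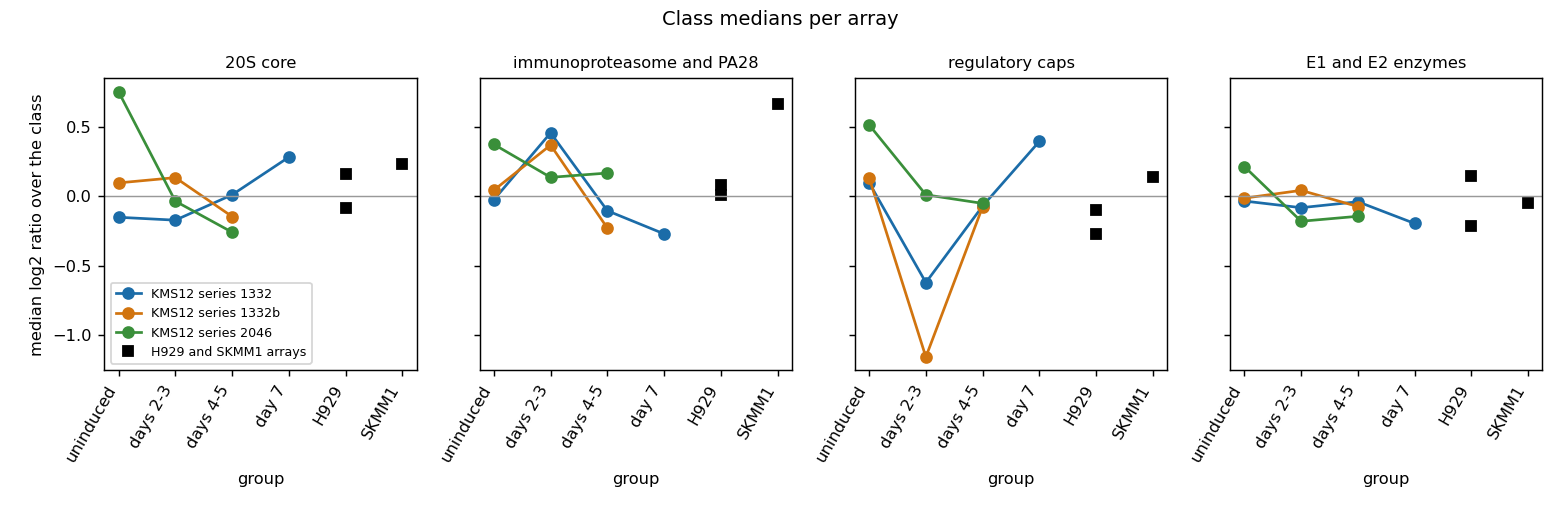
Median log2 ratio over the genes of a class (vertical axis) on each array, by group (horizontal axis), with 1 panel per class; coloured lines join the arrays of a KMS12 series and black squares are H929 and SKMM1 arrays. The core panel shows the 2046 uninduced array at 0.76, above all others, the cap panel shows 1332 and 1332b dipping at days 2-3, and the SKMM1 square of the immunoproteasome stands at 0.67.

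Among the core genes, PSMA7 encodes an alpha subunit of the outer rings, which form the gate. Its log2 ratios were -0.34, -0.79 and -0.07 at days 2-3, against -0.08, -0.16 and 0.92 on the uninduced arrays. The groups overlapped, and the difference of -0.62 (SE 0.34, limma adjusted p = 0.331) did not pass. Without the 2046 uninduced array it was -0.28. PSMB4 encodes a beta subunit without a catalytic site. It stood at -0.12, 0.15 and 0.00 at days 2-3, against -0.22, 0.11 and 0.94 uninduced, and at -0.13, -0.07 and 0.11 at days 4-5. In PSMB4 too only the 2046 uninduced array was set apart, and without it the difference was 0.06 at days 2-3 and 0.02 at days 4-5, against -0.27 and -0.31 with it.

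PSMB6 and PSMB7 encode the catalytic subunits with caspase-like and trypsin-like activity, which PSMB9 and PSMB10 replace in the immunoproteasome. PSMB6 had ratios of -0.21, -0.22 and -0.27 at days 4-5, against -0.23, 0.14 and 0.60 uninduced. The induced values were tight, with a mean of -0.23 ± 0.03 (SD, n = 3), and the uninduced ones spread over 0.17 ± 0.41 (SD, n = 3). PSMB7 had 0.15, -0.51 and -0.33 at days 4-5, against 0.11, 0.08 and 0.22 uninduced. Neither difference passed (PSMB6 -0.40, SE 0.24; PSMB7 -0.36, SE 0.23; limma adjusted p = 0.829 for both), and that of PSMB6 was -0.19 without the 2046 uninduced array. Without that array the core median was -0.00 at days 2-3 and -0.08 at days 4-5, with 2 of the 4 genes below 0 in each window. When features measured on few and on many arrays were centred apart, it was -0.08 at days 2-3 and -0.17 at days 4-5, with 4 of 4 below 0.

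The core median was 0.28 on the day 7 array (3 genes), -0.09 and 0.16 on the H929 arrays and 0.23 in SKMM1 (3 genes). The day 7 array of series 1332 gave 0.28 for PSMA7, 0.32 for PSMB4 and -0.41 for PSMB6. PSMA7 was at -0.22 and -1.05 on the H929 arrays, the largest gap between those repeats among the core genes, and at -0.10 in SKMM1. PSMB5, the main target of bortezomib, was not analysed here.

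Of the immunoproteasome genes, PSMB10 encodes the subunit that takes the place of PSMB7. Its log2 ratios were 0.16, 0.58 and 0.33 at days 2-3, against -0.83, -0.26 and -0.13 on the uninduced arrays, and all 3 induced values lay above all 3 uninduced ones. The difference was 0.76 (SE 0.24, 1.69-fold), with an unadjusted p of 0.0082 and a limma adjusted p of 0.128. At days 4-5 PSMB10 was back at -0.22, -0.27 and -0.13, within the range of the uninduced arrays. Its uninduced ratio was itself below 0 (mean -0.40 ± 0.37, SD, n = 3), and the days 2-3 ratios averaged 0.35 ± 0.21 (SD, n = 3). Its 3 features differed in size, from 0.33 to 1.64, and all lay above 0 at days 2-3, but at days 4-5 they ran from -0.21 to 0.73. The values of 1.64 and 0.73 came from a feature measured on 9 arrays. The features measured on 13 and 12 arrays gave 0.33 and 0.48 at days 2-3, so the averaged difference of 0.76 leans on the sparsest feature.

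PSMB9, which takes the place of PSMB6, differed less in KMS12. It had 0.55, 0.37 and 0.14 at days 2-3, against -0.02, 0.10 and 0.38 uninduced, ranges that overlapped (difference 0.20, SE 0.22, limma adjusted p = 0.624; 0.31 without the 2046 uninduced array). PSME1 encodes a subunit of PA28, the ring that opens the core ends of immunoproteasomes. It had 0.46, 0.31 and 0.12 at days 2-3, against 0.03, 0.04 and 0.58 uninduced, again overlapping (difference 0.08, SE 0.22; 0.26 without that array). In both genes the ratio on the day 7 array was below 0, at -0.65 for PSMB9 and -0.27 for PSME1.

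The promoters of 4 genes are printed: PSMB10 and UBE2L6, whose days 2-3 arrays lay above their uninduced ones, PSMB9, whose highest ratio was in SKMM1, and UBE2J1, which lay lower in all 3 series at days 2-3. They show which of the motifs searched stand before these genes. Each is the 250 bases before the RefSeq start (GRCh38.p14), 5′ to 3′ on the gene's strand, at chr16:67936851-67937100 (minus) for PSMB10, chr6:32853942-32854191 (plus) for PSMB9, chr11:57567673-57567922 (minus) for UBE2L6 and chr6:89352723-89352972 (minus) for UBE2J1. Capitals mark a match to GAAA, any 2 bases and GAAA again, the core of interferon response elements that IRF proteins bind, or to TGACNNNGC, the core of the antioxidant response element bound by NRF1 and NRF2, on either strand.
PSMB10: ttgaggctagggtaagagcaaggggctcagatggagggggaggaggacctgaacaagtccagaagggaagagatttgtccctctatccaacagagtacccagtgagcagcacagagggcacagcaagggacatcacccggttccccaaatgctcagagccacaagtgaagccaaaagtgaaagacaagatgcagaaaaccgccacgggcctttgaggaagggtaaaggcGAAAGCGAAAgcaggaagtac
PSMB9: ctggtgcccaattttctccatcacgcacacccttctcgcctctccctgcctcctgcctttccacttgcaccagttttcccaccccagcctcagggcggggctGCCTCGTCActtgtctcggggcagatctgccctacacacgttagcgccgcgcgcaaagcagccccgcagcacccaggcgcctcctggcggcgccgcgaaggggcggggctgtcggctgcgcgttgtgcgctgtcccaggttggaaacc
UBE2L6: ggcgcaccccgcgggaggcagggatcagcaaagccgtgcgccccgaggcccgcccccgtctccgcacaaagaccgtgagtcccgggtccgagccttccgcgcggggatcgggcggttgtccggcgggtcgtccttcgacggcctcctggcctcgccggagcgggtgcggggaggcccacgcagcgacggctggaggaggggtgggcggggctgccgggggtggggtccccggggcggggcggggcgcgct
UBE2J1: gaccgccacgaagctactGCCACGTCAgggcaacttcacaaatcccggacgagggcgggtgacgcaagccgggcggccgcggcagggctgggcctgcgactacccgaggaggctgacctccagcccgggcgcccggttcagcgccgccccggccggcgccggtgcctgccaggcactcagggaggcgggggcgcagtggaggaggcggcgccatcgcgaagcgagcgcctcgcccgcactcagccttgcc
Promoter sequence was at hand for 18 of the 24 genes. The repeated GAAA was found in 2 of the 18 (PSMB10 and PSMB4), against 3.71% of 27305 genes, and TGACNNNGC in 4 (PSMB9, PSME1, PSME4 and UBE2J1), against 13.2%. In PSMB10 the match lies 21 to 12 bases before the start, and in PSMB9 the match lies 148 to 140 bases before it. The related motif with GGAA in place of the first GAAA was in 0 of the 18 windows (2.99% of all genes), and CACGTG, the E-box that MYC binds, was in 3 (PSME3, PSME3IP1 and UBA1; 7.73% of all genes). The repeated GAAA and the related motif with GGAA were counted apart from each other. The matches are letters in a window and do not show binding.

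**Figure D3:**
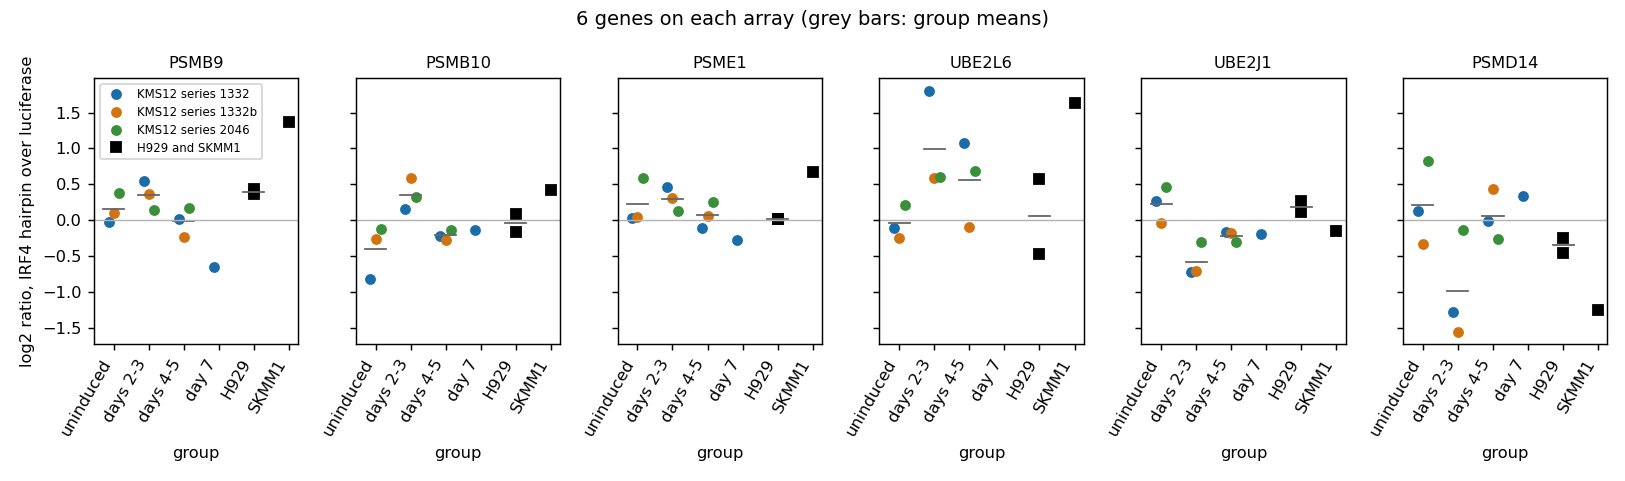
Log2 ratio of the IRF4 hairpin over luciferase (vertical axis) on each array for 6 genes (panels), by group (horizontal axis); circles are KMS12 arrays coloured by series, black squares are H929 and SKMM1 arrays, and grey bars are means of groups with 2 or more arrays. PSMB10 at days 2-3 lies wholly above its uninduced points, UBE2J1 lies wholly below them, and SKMM1 holds the highest PSMB9 value (1.37).

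In the regulatory caps, PSMD14, the deubiquitinase of the 19S lid that cuts ubiquitin chains from the substrate, had the lowest difference of all 24 genes at days 2-3. Its ratios were -1.28, -1.56 and -0.14, against 0.13, -0.34 and 0.82 uninduced. The values of series 1332 and 1332b lay far below every uninduced one, while that of 2046 fell within their range. The difference was -1.20 (SE 0.40, 2.30-fold lower, unadjusted p = 0.0115, limma adjusted p = 0.144). Without the 2046 array at days 2-3 it was -1.63 with a limma adjusted p of 0.0225, and PSMD14 then passed together with UBE2J1 (0.0400), while 6.77% of all genes tested passed. At days 4-5 PSMD14 stood at -0.01, 0.43 and -0.26, and the difference from uninduced was -0.15 (SE 0.40; 0.16 without the 2046 uninduced array). Both its features lay below 0 at days 2-3, at -0.85 and -1.55.

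PSMD6, another lid subunit, rested on few and scattered values. It had no value on the 1332 array at days 2-3, -1.76 and -0.01 in 1332b and 2046, and -1.05, 0.42 and -0.22 uninduced. Without the 1332b array its difference was 0.27, against -0.60 (SE 0.57) with it. PSME4 encodes PA200, a cap of nuclear proteasomes. It was measured on 8 arrays, with -1.30 in 1332 and -1.16 in 1332b at days 2-3, against 0.26 in 1332b and -0.73 in 2046 uninduced. Both induced values were lower than both uninduced ones, with a difference of -0.99 (SE 0.41, limma adjusted p = 0.247), but only 1332b had both arrays.

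PSMF1 encodes PI31, a protein that binds the core and can inhibit it in vitro. Its ratios were 0.04, -0.48 and 0.07 at days 2-3, against 0.48, 0.14 and 0.52 uninduced, without overlap (difference -0.50, SE 0.23, limma adjusted p = 0.253). Its 2 features disagreed in size, at -0.97 and -0.04. PSME3 encodes PA28 gamma, the nuclear relative of PA28. It had 0.26, 0.06 and 0.04 at days 2-3, against 0.07, -0.09 and 0.52 uninduced, overlapping, with a difference of -0.05 (SE 0.26; 0.13 without the 2046 uninduced array). On the day 7 array PSME3 reached 0.86, PSME4 0.46 and PSMD14 0.34.

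Of the activating enzymes, UBA1 starts most ubiquitin transfer in the cell. Its ratios were 0.04, 0.47 and 0.10 uninduced, 0.35, 0.74 and 0.36 at days 2-3 and -0.02, -0.53 and 0.04 at days 4-5. The values at days 4-5 all lay below both other groups, though the highest of them and the lowest uninduced one were both 0.04. Differences from uninduced were 0.28 (SE 0.24, limma adjusted p = 0.533) at days 2-3 and -0.38 (SE 0.24, limma adjusted p = 0.829) at days 4-5. UBA6, a second enzyme that charges ubiquitin and also the modifier FAT10, had no value in series 1332. In 1332b and 2046 it had -2.06 and -0.53 at days 2-3, against -0.24 and -0.39 uninduced, and the difference of -0.98 (SE 0.55) came mainly from the single value of -2.06.

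UBA7 and UBE2L6 are the E1 and the E2 of ISG15, a ubiquitin-like modifier induced by interferon. UBE2L6 had the highest difference of the 24 genes at days 2-3. Its ratios were 1.81, 0.58 and 0.59 at days 2-3, against -0.11, -0.25 and 0.22 uninduced, without overlap, and 1.07, -0.10 and 0.69 at days 4-5. The difference at days 2-3 was 1.04 (SE 0.42, 2.06-fold, unadjusted p = 0.0295, limma adjusted p = 0.201), and that at days 4-5 was 0.60 (SE 0.42, limma adjusted p = 0.839). A single feature measured UBE2L6. UBA7 had 0.12, 0.30 and 0.32 at days 4-5, against -0.97, 0.22 and -0.28 uninduced, and these groups overlapped (difference 0.59, SE 0.32, limma adjusted p = 0.829). ISG15 itself differed by 0.56 (SE 0.27, limma adjusted p = 0.267) at days 2-3 and by 0.17 (SE 0.27, limma adjusted p = 0.906) at days 4-5.

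UBE2J1 is an E2 of the endoplasmic reticulum membrane that tags misfolded secretory proteins for degradation. It had -0.72, -0.71 and -0.31 at days 2-3, against 0.27, -0.04 and 0.46 uninduced, and -0.17, -0.18 and -0.31 at days 4-5. Both induced groups lay wholly below the uninduced arrays. The difference was -0.81 (SE 0.22, 1.75-fold lower, unadjusted p = 0.0033, limma adjusted p = 0.111) at days 2-3 and -0.45 (SE 0.22, limma adjusted p = 0.829) at days 4-5. All 3 of its features lay below 0 in both windows, from -1.45 to -0.28 at days 2-3.

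UBE2H, an E2 that works with the CTLH ligase, lay lower in both windows. Its ratios were 0.38, -0.01 and 0.08 uninduced, -0.06, -0.72 and -0.40 at days 2-3 and -0.28, -0.54 and -0.66 at days 4-5, and day 7 stood at -0.61. No induced KMS12 array overlapped the uninduced ones. The difference was -0.54 (SE 0.23, limma adjusted p = 0.229) at days 2-3 and -0.64 (SE 0.23, 1.56-fold lower, unadjusted p = 0.0187, limma adjusted p = 0.829) at days 4-5. The 5 features of UBE2H all lay below 0, from -0.72 to -0.23 at days 2-3 and from -0.72 to -0.52 at days 4-5, and they share the gene and the arrays and are not independent.

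UBE2A and UBE2B are near-identical E2 enzymes of DNA damage tolerance, and cDNA features of such a pair can hybridise to both transcripts. UBE2B had -0.74, -0.59 and -0.46 at days 2-3, against -0.26, -0.04 and 0.20 uninduced, without overlap (difference -0.56, SE 0.21, unadjusted p = 0.0216, limma adjusted p = 0.176). At days 4-5 it lay at -0.12, 0.06 and -0.14, among the uninduced values. Its 4 features disagreed, with 3 between -0.92 and -0.78 and 1 at 0.86 at days 2-3. UBE2A had -0.39, -0.79 and 0.06 at days 2-3, against 0.18, -0.00 and 0.49 uninduced, with overlap (difference -0.60, SE 0.29, limma adjusted p = 0.274).

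UBE2V1, an inactive E2 variant that partners UBE2N, had 0.22, -0.07 and -0.15 at days 4-5, against 0.70, 0.21 and 0.44 uninduced (difference -0.45, SE 0.23, limma adjusted p = 0.829). It lay below its own uninduced array in all 3 series, though the groups overlapped slightly. UBE2S, which extends chains with the anaphase-promoting complex, had -0.05, -0.41 and -0.74 at days 4-5, against -0.45, -0.14 and 0.55 uninduced. The 2 groups of UBE2S overlapped, and its 3 features lay between -0.56 and -0.25. Its difference was -0.39 (SE 0.29), and it was -0.10 without the 2046 uninduced array. UBE2Z, which receives FAT10 and ubiquitin from UBA6, differed by -0.08 (SE 0.33) at days 2-3 and by -0.15 (SE 0.29) at days 4-5 (0.05 and -0.02 without the 2046 uninduced array), and stood at -0.94 on the day 7 array.

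**Figure D4:**
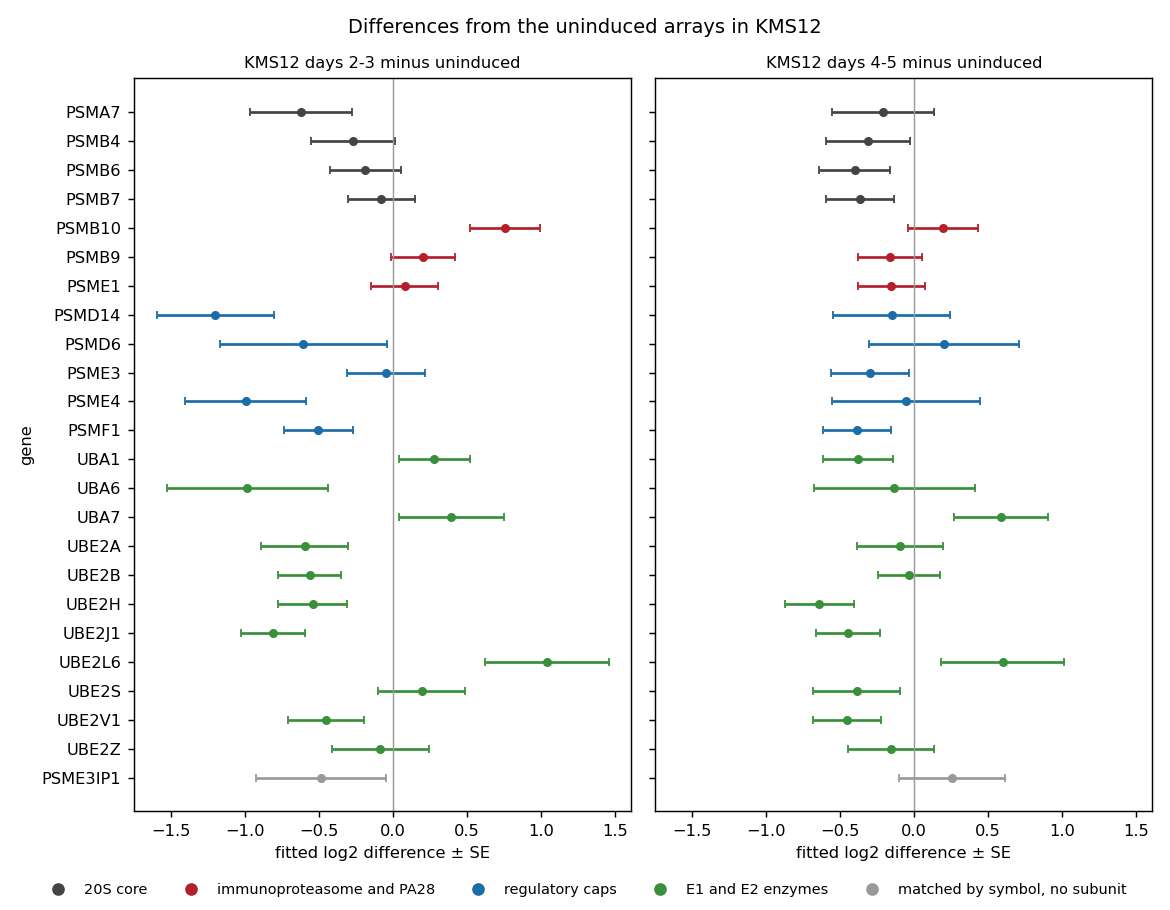
Fitted log2 difference from the uninduced KMS12 arrays (horizontal axis, points) with its standard error (bars) for each of the 24 genes (vertical axis), coloured by class, at days 2-3 (left) and days 4-5 (right). The points spread from -1.20 (PSMD14) to 1.04 (UBE2L6) at days 2-3 and from -0.64 (UBE2H) to 0.60 (UBE2L6) at days 4-5.

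Counted over arrays, 4 of the 17 genes with all 6 values lay lower on every days 2-3 array than on every uninduced one (PSMF1, UBE2B, UBE2H and UBE2J1; 23.5%, against 21.9% of all genes so measured), and 2 lay higher (PSMB10 and UBE2L6; 11.8% against 8.81%). At days 4-5 the lower ones were 3 of 21 (UBA1, UBE2H and UBE2J1; 14.3% against 7.15%) and the higher ones 0 (4.73% of all). The shares at days 2-3 were near those of all genes.

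Of the 12 genes with 2 or more features, 4 had features of opposite sign at days 2-3 (PSME1, PSME3, UBA7 and UBE2B) and 4 at days 4-5 (PSMB10, PSME1, UBE2A and UBE2B). PSME4, UBA6 and PSME3IP1 were just inside the limit, with 8 arrays each. PSME3IP1 encodes a protein that binds PA28 gamma. It had 2.58 on the day 7 array, the highest ratio among the 24 genes, and -0.67 to 0.47 on its other 7 arrays. Just outside were PSMD3, a lid subunit with 6 arrays (-0.75 to 1.38), PSMB1, a core subunit with 4 arrays (0.14 to 1.35), and the antisense RNA PSMA3-AS1 with 4 arrays (-0.85 to 1.57). These 3 entered no comparison.

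**Figure D5:**
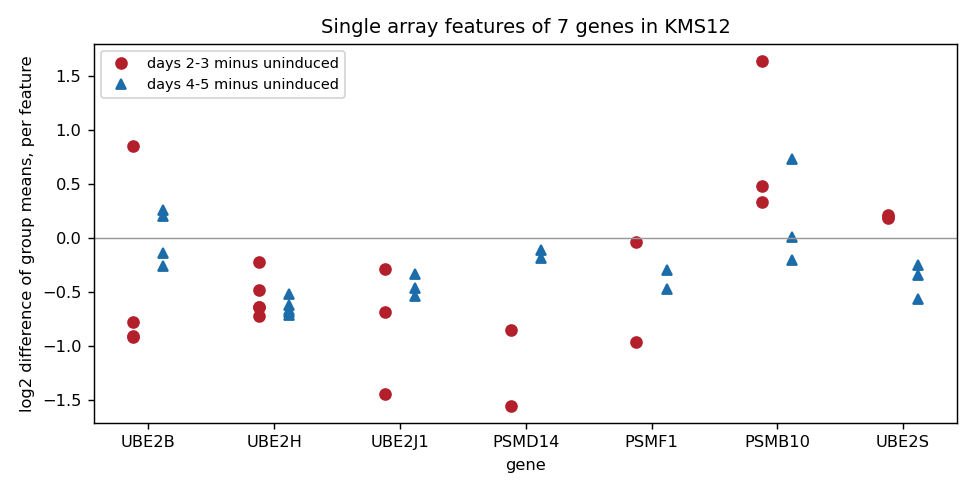
Difference of group means from uninduced on the log2 scale (vertical axis) for each single array feature of 7 genes (horizontal axis); red circles are days 2-3 and blue triangles are days 4-5. The 5 UBE2H features and the 3 UBE2J1 features lie below 0 in both windows, and 1 of the 4 UBE2B features lies at 0.86 at days 2-3, apart from the others.

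Between the induced windows of KMS12, the caps had a median difference of 0.81 for days 4-5 minus days 2-3 (4 of 5 above 0). This median is the value of PSMD6 alone (SE 0.57), which had 2 values at days 2-3, and PSME4 had 1 value at days 4-5. The 3 immunoproteasome genes lay lower at days 4-5, with a median of -0.36. Over all 6857 tested the median was 0.01, with 3472 above 0. The E1 and E2 enzymes had a median of 0.00 and the core one of -0.13. Limma called 0 of the 24 genes (0.0146% of all tested). At an unadjusted p under 0.05 there were 2 lower genes, PSMB10 (-0.56, SE 0.24) and UBA1 (-0.66, SE 0.24), and 2 higher, PSMD14 (1.05, SE 0.40) and UBE2B (0.53, SE 0.21), or 8.33% each way, against 4.65% lower and 8.5% higher over all tested. The days 4-5 arrays all lay below the days 2-3 arrays for 3 of 17 genes (PSMB10, UBA1 and UBE2S; 17.6%, against 8.97% of all genes) and above them for 2 (UBE2B and UBE2J1; 11.8% against 12.1%). This difference and those from uninduced share the days 2-3 and days 4-5 arrays.

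In H929 at day 4 the class medians were 0.08 for the core, 0.01 for the immunoproteasome, -0.10 for the caps and -0.05 for the E1 and E2 enzymes. Limma called 0 of the 24 genes against 0 (0.0932% of all tested). At an unadjusted p under 0.05, UBE2A and UBE2V1 lay lower (8.33% against 12.3% of all tested) and 0 genes higher (6.2% of all). UBE2A had -0.35 and -1.21 on the 2 arrays (mean -0.78, SE 0.25, limma adjusted p = 0.139), and UBE2V1 had -0.68 and -0.30 (mean -0.49, SE 0.20, limma adjusted p = 0.224). The 2 arrays of H929 correlated at 0.62 over all features. PSMB9 stood at 0.36 and 0.44, both repeats alike, and UBE2L6 at 0.58 and -0.47, repeats on opposite sides of 0. With no dye swap, a dye effect of a feature stays in these ratios against 0.

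Set against KMS12 at days 4-5, H929 had 0 genes called by limma (0% of all tested). At an unadjusted p under 0.05 it gave 1 lower, UBE2A (-0.91, SE 0.33, limma adjusted p = 0.347; 4.17% against 7.74% of all tested), and 0 higher (3.85% of all). UBE2A had -0.35 and -1.21 in H929, against 0.03, 0.31 and 0.05 in KMS12 at days 4-5, without overlap.

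SKMM1, with 1 array, held the highest ratios of PSMB9 and PSME1 on any of the 13 arrays. UBE2L6 stood at 1.63 (309% of the luciferase culture), PSMB9 at 1.37 (259%), PSME1 at 0.67 (159%) and PSMB10 at 0.42 (134%). UBA1 was at 0.72 and UBA7 at 0.51. At the other end, PSMD14 was at -1.26 (41.8%), UBE2A at -0.76, UBE2S at -0.65 and UBE2H at -0.62. There is no replicate of this array. The 19 measured genes for antigen processing and the interferon response had a median of 0.08 on it, over 18 with a value.

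Hairpin 2046 at day 4 could be compared over the 3 lines, with 1 value per line and 20 genes measured in all. Limma called 0 of the 20 (0% of all tested). PSMD14 (-0.62, SE 0.24, limma adjusted p = 0.320) and UBE2H (-0.49, SE 0.18, limma adjusted p = 0.305) lay lower at an unadjusted p under 0.05 (10% against 9.19% of all tested). PSMB9 (0.65, SE 0.26, limma adjusted p = 0.326) and UBE2L6 (0.79, SE 0.30, limma adjusted p = 0.317) lay higher (10% against 5.94%). The PSMB9 values were 0.17 in KMS12, 0.36 and 0.44 in H929 and 1.37 in SKMM1, all above 0, so that SKMM1 held most of the mean. PSMD14 had -0.26, then -0.24 and -0.46, then -1.26 in the same order of lines, but its 2 features stood at 0.27 and -0.98 in H929, and in SKMM1 the second of them alone had a value.

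All 4 arrays of this hairpin lay below 0 for 4 of the 20 genes (PSMA7, PSMD14, UBE2B and UBE2H; 20%, against 17% of all genes). They lay above 0 for 6 (PSMB9, PSME1, PSME3, UBA1, UBA7 and UBE2Z; 30% against 18.3%). Without the KMS12 array, limma called 1 gene, UBE2A, where 11.6% of all tested were called.

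On the uninduced KMS12 arrays the 24 genes had a median of 0.16 with 9 below 0 (37.5%), against -0.03 and 54.1% over all tested. By array the medians were -0.02, 0.06 and 0.41, and without the 2046 array the fitted median was 0.01, with 12 below 0. Limma called 0 of them (0% of all tested). At an unadjusted p under 0.05, PSMB10 lay lower (-0.40, SE 0.17; 4.17% against 5.86%) and PSMF1 (0.38, SE 0.16) and UBE2V1 (0.45, SE 0.16) lay higher (8.33% against 2.09%). Without the 2046 array these were -0.54, 0.31 and 0.45, and at an unadjusted p PSMB10 alone stayed under 0.05 (unadjusted p = 0.02, limma adjusted p = 1). PSMB10 and PSMF1 are among the genes whose induced arrays at days 2-3 did not overlap the uninduced ones. When the days 2-3 ratios were set against 0 in place of the uninduced arrays, PSMB10 averaged 0.35 and PSMF1 -0.12. That setting called 2 of the 24 genes, UBE2B (-0.60, limma adjusted p = 0.0402) and UBE2J1 (-0.58, limma adjusted p = 0.0453), both lower, where 7.61% of all tested were called.

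Other genes of the ubiquitin system were read from 6 lists, and limma called 0 genes of any of them in either KMS12 window. The deubiquitinases, which remove ubiquitin, had a median difference of -0.49 at days 2-3 (13 of 26 measured, 11 below 0, and 5 lower and 0 higher at an unadjusted p under 0.05) and -0.17 at days 4-5 (8 below 0, 0 at an unadjusted p under 0.05). Over all tested, 45.1% lay below 0 at days 2-3, 13.2% lay lower and 7.17% higher at an unadjusted p under 0.05, and at days 4-5 these shares were 46.7%, 1.76% and 3.79%. TNFAIP3, an editing enzyme of NF-kB signalling, differed by -0.58 (SE 0.30) at days 4-5, CYLD, another brake on NF-kB, by -0.65 (SE 0.44), USP22, which acts on histones, by 0.84 (SE 0.42; 0.42 without the 2046 uninduced array) and USP33 by 0.29 (SE 0.33). The ubiquitin ligases had medians of -0.08 and -0.16 at days 2-3 and days 4-5 (22 of 38 measured; 5 lower and 0 higher, then 1 lower and 1 higher at an unadjusted p under 0.05, against 13.2% and 7.17%, then 1.76% and 3.79% of all tested). At days 4-5 KEAP1, the adaptor that marks NRF2 for degradation, differed by -0.86 (SE 0.24, limma adjusted p = 0.829), SKP2 by -0.43 (SE 0.26), TRAF6 by 0.47 (SE 0.37) and BTRC by 0.74 (SE 0.30). SKP2 differed by -0.26 without the 2046 uninduced array.

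NFE2L2 encodes NRF2, which drives proteasome genes under oxidative stress. It differed by -1.51 (SE 0.43, limma adjusted p = 0.115) at days 2-3 and by -0.37 (SE 0.43) at days 4-5, and it was singled out after its values were seen. The list of proteasome gene regulators (4 of 8 measured) had medians of -0.07 and -0.12, with BACH1 at -0.22, MAFG at -0.01 and STAT3 at 0.10 at days 4-5. Of the cap parts and shuttle factors 3 of 16 were measured, with medians of -0.24 and 0.07. RAD23B, which carries tagged proteins to the cap, differed by -0.39 (SE 0.32) at days 4-5, UBQLN2 by 0.07 (SE 0.25) and AKIRIN2, which brings proteasomes into the nucleus, by 0.78 (SE 0.31). Of the ubiquitin-like modifiers 2 of 13 were measured, ISG15 (above) and UBD, which encodes FAT10, at 0.09 (SE 0.36), with list medians of 0.09 and 0.13.

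The antigen processing and interferon list (19 of 24 measured) had medians of 0.04 at days 2-3 (10 above 0) and 0.09 at days 4-5 (11 above 0), with 1 lower and 1 higher, then 0 lower and 1 higher, at an unadjusted p under 0.05 (against the same shares of all tested). TAP1, the peptide transporter gene next to PSMB9, differed by -0.46 (SE 0.27) at days 4-5 and B2M, the light chain of MHC class I, by -0.30 (SE 0.42). IFIT1, which interferon induces, differed by 0.91 (SE 0.35), and GBP1, a GTPase also induced by interferon, by 1.52 (SE 0.95). When single arrays were left out, IFIT1 ran from 0.54 to 1.29 and GBP1 from 0.38 to 2.24.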

How the data were processed

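The authors deposited 1 table of log2 ratios for 15246 features on 13 two-colour arrays, with Cy5 for the IRF4 hairpin and Cy3 for luciferase throughout, per the labels. Trizol RNA was labelled during reverse transcription, per the labels' protocols. The base of the logarithm (taken as 2), the normalization and the rule for blank values were not given in the sources used here. No intensities were used, and there was no dye swap. The lowest correlation between 2 arrays was -0.33 (SKMM1 and the series 2046 uninduced array), and the direction stated by the dyes was kept. Symbols were those of the platform annotation (10169 features with 1 symbol, 4 with several, 5073 with none), updated to RefSeq symbols (10128 found).

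Features with values on 7 or more arrays (10396) were kept, array medians over them were set to 0, and features were averaged per gene, which gave 3841 named genes and 3107 unnamed features. The 6 group means of the 13 arrays were fitted in limma 3.58.1 (two-sided moderated test after lmFit and eBayes, R 4.3.3), with Benjamini-Hochberg adjustment over all tested and a threshold of 0.05. Groups with 1 array share the estimated spread, and blank values stayed missing. A separate fit took 1 value per line for hairpin 2046 at day 4. Series paired the arrays weakly in comparisons with uninduced: the deviations of same-series arrays correlated at 0.13 to 0.25 in all 3 series, over 3432 genes. Between days 2-3 and days 4-5 they correlated at 0.36, -0.10 and -0.07 in 1332, 1332b and 2046. The main fit, which gave the SE and p-values above, did not use this pairing, and the fit with the series as a block did.

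The genes, classes, lists and alternatives were chosen with earlier results of these data known. Named were IRF4, all immunoproteasome genes, the 3 lowest and 3 highest of each other class in both KMS12 windows, UBA1, and of each of the 6 lists the 2 lowest and 2 highest at days 4-5; genes past an unadjusted p under 0.05 or without overlap were named after their values were seen. Alternatives changed the minimum of arrays, the centring, the feature taken per gene, the variance model, the block, the comparison and each array in turn.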

Additional observations from a re-analysis of the deposited data

How the results depend on the processing

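Under the alternatives run, the count of genes called stayed at 0 in all 7 comparisons, except for 2 genes at days 2-3 with ratios set against 0, a range of 0 to 2 at days 2-3 when single arrays were left out (2 without the series 2046 array at days 2-3) and a range of 0 to 1 for hairpin 2046 in 3 lines (1 without the KMS12 array). With the culture series as a replicate block 0 of the 22 fitted genes were called in either window, where 0% of all 5846 tested were called. IRF4 itself did not pass with the block (limma adjusted p = 0.0804 at days 2-3 and 0.661 at days 4-5). The block count of 0 is thus no separate result about these genes. The block gave an E1 and E2 median of -0.124 at days 2-3 (5 genes below 0 and 5 above). At days 4-5 it gave an E1 and E2 median of -0.266 (8 below 0 and 2 above) and a cap median of -0.299.

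At days 2-3 the E1 and E2 median was also -0.158 with values on 10 or more arrays, -0.552 without centring, -0.283 with the best measured feature and -0.006 against 0, and -0.566 to -0.310 when single arrays were left out. With 10 or more arrays, 11 of 21 genes lay below 0 at days 2-3, against 46.2% of all tested, and without single arrays 13 to 19 did at days 2-3 and 14 to 21 at days 4-5; these counts were added after seeing the data. At days 4-5 the immunoproteasome median was 0.023 with centring by how often a feature was measured, -0.013 against 0, and -0.248 to 0.030 without single arrays (0.030 without the series 2046 uninduced array), and the cap median was -0.423 to -0.056 without single arrays (-0.423 without the series 1332b uninduced array). The cause of these shifts was not tested.

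Some single genes that passed no test turned sign. With 10 or more arrays, PSMB7 (0.027) and PSME3 (0.047) did so at days 2-3, and PSMB10 (-0.001), UBE2A (0.003), UBE2B (0.065) and MAFG (0.089) at days 4-5. Against 0, these were PSMB4 (0.009), PSMB7 (0.058) and PSME3 (0.118) at days 2-3. At days 4-5 against 0 they were PSMB10 (-0.21), PSME1 (0.067), PSMA7 (0.012), PSMD14 (0.054), PSMD6 (-0.083), UBE2A (0.127), UBD (-0.080), BACH1 (0.081), STAT3 (-0.129), USP33 (-0.096) and B2M (0.327). With centring by how often a feature was measured, the days 4-5 values were 0.023 for PSMB9, 0.012 for PSME1, 0.093 for UBE2A, 0.081 for UBE2B, -0.154 for UBD, 0.178 for MAFG and -0.031 for USP33. With the best measured feature they were -0.206 for PSMB10, -0.008 for UBQLN2 and -0.009 for STAT3. Without a minimum of arrays UBE2B gave 0.055 and UBQLN2 -0.010 at days 4-5. At days 2-3 PSME1 gave -0.020 without centring and -0.012 without a minimum of arrays.

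Leaving out single arrays turned some signs at days 2-3, with ranges of -0.519 to 0.060 for PSMB4, -0.385 to 0.029 for PSMB6, -1.48 to 0.271 for PSMD6, -0.016 to 0.261 for PSME1 and -0.174 to 0.128 for PSME3. At days 4-5 the core and cap ranges were -0.405 to 0.135 for PSMA7, -0.557 to 0.023 for PSMB4, -0.423 to 0.157 for PSMD14, -0.183 to 0.551 for PSMD6 and -0.547 to 0.436 for PSME4. The immunoproteasome ranges were -0.016 to 0.333 for PSMB10 and -0.248 to 0.030 for PSME1. The enzyme ranges were -0.578 to 0.313 for UBA6, -0.207 to 0.038 for UBE2A and -0.147 to 0.086 for UBE2B. Among the listed genes they were -0.584 to 0.141 for B2M, -0.515 to 0.021 for BACH1, -1.3 to 0.007 for CYLD, -0.055 to 0.344 for ISG15, -0.151 to 0.109 for MAFG, -0.075 to 0.269 for STAT3, -0.006 to 0.738 for TRAF6, -0.346 to 0.527 for UBD and -0.043 to 0.174 for UBQLN2.

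The days 2-3 differences of PSMB10 (0.33 to 0.90), UBE2L6 (0.64 to 1.25), UBE2H (-0.71 to -0.38), UBE2J1 (-0.94 to -0.28), UBE2B (-0.91 to -0.44) and PSMD14 (-1.63 to -0.89) kept their side of 0 under every alternative run. Their limma adjusted p ran from 0.0225 (PSMD14 without the series 2046 array at days 2-3) to 0.546 (UBE2J1 with the best measured feature). These genes were taken for their unadjusted p under 0.05 in the same window, so keeping their side was largely set by that choice. Other genes kept theirs too, such as PSMA7 (-0.82 to -0.28), UBE2A (-0.81 to -0.37), PSMB9 (0.10 to 0.37) and UBA1 (0.15 to 0.49). Signal over background was not used here, so dim features could not be told from bright ones.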
